A study of Mus musculus with 31 samples.

Results

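Mast cells and basophils are described here through 10 genes, Cma1, Mcpt4, Mcpt8, Cpa3, Tpsb2, Tpsab1, Kit, Fcer1a, Ms4a2 and Gata2, taken by symbol from the 38406 genes counted in each of 31 bulk RNA-seq libraries. The libraries come from CD45.2+ leukocytes that were sorted out of orthotopic AT3-OVA tumours, a triple negative mammary tumour line grown in the mammary fat pad of female wildtype C57BL/6 mice. At day 5 after the end of radiotherapy there were 6 libraries of tumours given 3x4Gy, with the fractions a day apart, and 4 of their 3x0Gy mocks, then 6 libraries of tumours given 1x20Gy and 4 of their 1x0Gy mocks. At day 13 there were 7 libraries of 1x20Gy tumours and 4 of 1x0Gy mocks. Mock mice were anaesthetised like the irradiated ones and received no dose. No age is given, every group carries the same tumour line and the same wildtype genotype, and only RNA of high integrity was sequenced. Day 5 and day 13 libraries carry different sample codes, so day and experiment cannot be told apart and levels were not tested across days. The labels do not say whether each library is 1 mouse, so p-values measure the spread between these libraries. In such bulk samples, fewer cells of a type and less RNA per cell cannot be told apart.

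Mast cells mature in tissues under stem cell factor, which acts through the receptor tyrosine kinase Kit, and store proteases, histamine and heparin in granules that are released when IgE bound to the high-affinity receptor FcεRI is cross-linked. Basophils are short-lived circulating granulocytes that also carry FcεRI and depend on interleukin 3. GATA2 is a transcription factor that both lineages need. The granule proteases of connective tissue mast cells in the mouse are the chymases encoded by Cma1 (mast cell protease 5) and Mcpt4 (mast cell protease 4), carboxypeptidase A3 (Cpa3) and the tryptases encoded by Tpsb2 (mast cell protease 6) and Tpsab1 (mast cell protease 7). Mcpt8, by contrast, encodes a granzyme-like protease that marks mouse basophils. Fcer1a and Ms4a2 encode the alpha and beta chains of FcεRI.

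On GRCm38 the chymase-type genes lie together on the minus strand of chromosome 14, with Cma1 at chr14:55941451-55944675, Mcpt4 at chr14:56059629-56062313 and Mcpt8 at chr14:56082166-56085273. The tryptase genes lie on chromosome 17, Tpsb2 at chr17:25366305-25369098 on the plus strand and Tpsab1 at chr17:25343245-25345562 on the minus strand. Cpa3 is at chr3:20215620-20242181 and Gata2 at chr6:88193891-88207032. All 10 are protein-coding genes. No stretch of 50 bases in the exons of Tpsb2 or Tpsab1 was found in another gene. For Cma1, 5.38% of such stretches occurred in Gm48934, for Mcpt4 5.48% in Cma2 or Mcpt9, and for Ms4a2 2.10% in Ms4a4b. The counter listed reads without a unique alignment apart, so some reads of Cma1, Mcpt4 and Ms4a2 may be missing from their counts. Mcpt8 overlaps the microRNA gene Mir6949 and Cpa3 overlaps Mir7007.

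Because Gata2 and the protease genes varied together between libraries (given further on), the 250 bases before the RefSeq start site were searched for the letters GATAA, the core that GATA factors bind, on both strands. RefSeq windows were at hand for 8 members, 10 windows in all, and for neither tryptase gene, Tpsb2 or Tpsab1. Of the 8 members, 5 held GATAA, namely Cma1, Mcpt4, Cpa3, Fcer1a and Ms4a2. Counted by window, 5 of the 10 held it, against 22.6% of all 32851 RefSeq windows. Mcpt8, Kit and Gata2 held none. The STAT-type letters TTCNNNGAA occurred in none of the 8 and in 7.02% of all windows. The 3 protease windows with GATAA are shown, all on the minus strand of GRCm38.p6 and written 5′ to 3′, with GATAA or its reverse complement in capitals: Cma1 at chr14:55944676-55944925 with the match starting at base -194, Mcpt4 at chr14:56062311-56062560 with base -102, and Cpa3 at chr3:20242182-20242431 with base -45. A match describes the letters and does not show that a factor binds there.
Cma1: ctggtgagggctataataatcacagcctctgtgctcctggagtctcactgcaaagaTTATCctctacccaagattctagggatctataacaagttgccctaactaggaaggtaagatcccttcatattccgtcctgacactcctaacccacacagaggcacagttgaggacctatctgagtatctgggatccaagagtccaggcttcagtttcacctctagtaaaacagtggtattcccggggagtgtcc
Mcpt4: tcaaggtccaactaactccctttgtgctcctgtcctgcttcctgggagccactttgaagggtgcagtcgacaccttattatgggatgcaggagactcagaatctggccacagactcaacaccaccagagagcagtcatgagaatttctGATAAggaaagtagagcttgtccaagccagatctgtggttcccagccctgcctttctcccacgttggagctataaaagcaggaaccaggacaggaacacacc
Cpa3: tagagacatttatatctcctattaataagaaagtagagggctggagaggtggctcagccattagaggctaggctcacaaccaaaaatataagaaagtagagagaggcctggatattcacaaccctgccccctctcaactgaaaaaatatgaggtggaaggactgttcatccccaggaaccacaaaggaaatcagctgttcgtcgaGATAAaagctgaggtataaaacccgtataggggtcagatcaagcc

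The libraries held 2641229 to 7541144 reads assigned to genes, and the members took few of them. Values are CPM, read counts scaled to sequencing depth with TMM factors, and a fold change is called at an adjusted p below 0.05 in edgeR's quasi-likelihood test over all genes of the fit. A single transcript, RP23-81C12.3, took 19.2 to 31.5% of gene counts in the day 13 1x20Gy libraries and 2.15 to 15.01% in their mocks, and no member's call changed when it was left out. The 5 defining leukocyte markers summed to 3884 to 5215 CPM in 3x4Gy libraries and 2567 to 3537 CPM in 3x0Gy mocks, to 4109 to 5062 CPM in 1x20Gy libraries and 3875 to 4023 CPM in 1x0Gy mocks at day 5, and to 4338 to 5411 CPM in 1x20Gy libraries and 4018 to 4432 CPM in 1x0Gy mocks at day 13. They were thus higher after irradiation without overlap at day 5, and Ptprc (log2 fold change 0.89) and Cd52 (0.40) were called higher after 3x4Gy. The summed fibroblast markers were lower after irradiation, as given beside the results they touch. The part of either in the members' changes was not tested. Of the 10 members, 8 were tested at day 5 and 7 at day 13. Fcer1a and Ms4a2 fell below the count filter on both days, and Mcpt8 at day 13.

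Per kilobase of exon and averaged over all 31 libraries, the level of Cma1 was highest at 23.5 CPM per kb, followed by Cpa3 at 15.2, Mcpt4 at 8.37 and Tpsb2 at 8.19 CPM per kb. Kit stood at 3.59, Tpsab1 at 2.27, Mcpt8 at 2.07, Fcer1a at 0.956, Gata2 at 0.937 and Ms4a2 at 0.0608 CPM per kb. Cma1 led in every group. Ms4a2, the beta chain of FcεRI, was last in all but the day 5 1x0Gy group, where it had 0.0432 and Fcer1a 0 CPM per kb. In that group Kit, at 3.20 CPM per kb, stood above Tpsb2 and Mcpt4. The order of the next genes varied by group: Tpsb2 was above Mcpt4 in the day 5 3x0Gy (10.6 and 3.57 CPM per kb), 1x20Gy (7.34 and 6.66) and 1x0Gy (2.52 and 0.953) groups and below it in the other groups, and in 3x0Gy it was also above Cpa3 (9.80). For each member, the libraries of neighbouring groups in the order of group means overlapped in every case.

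**Figure D1:**
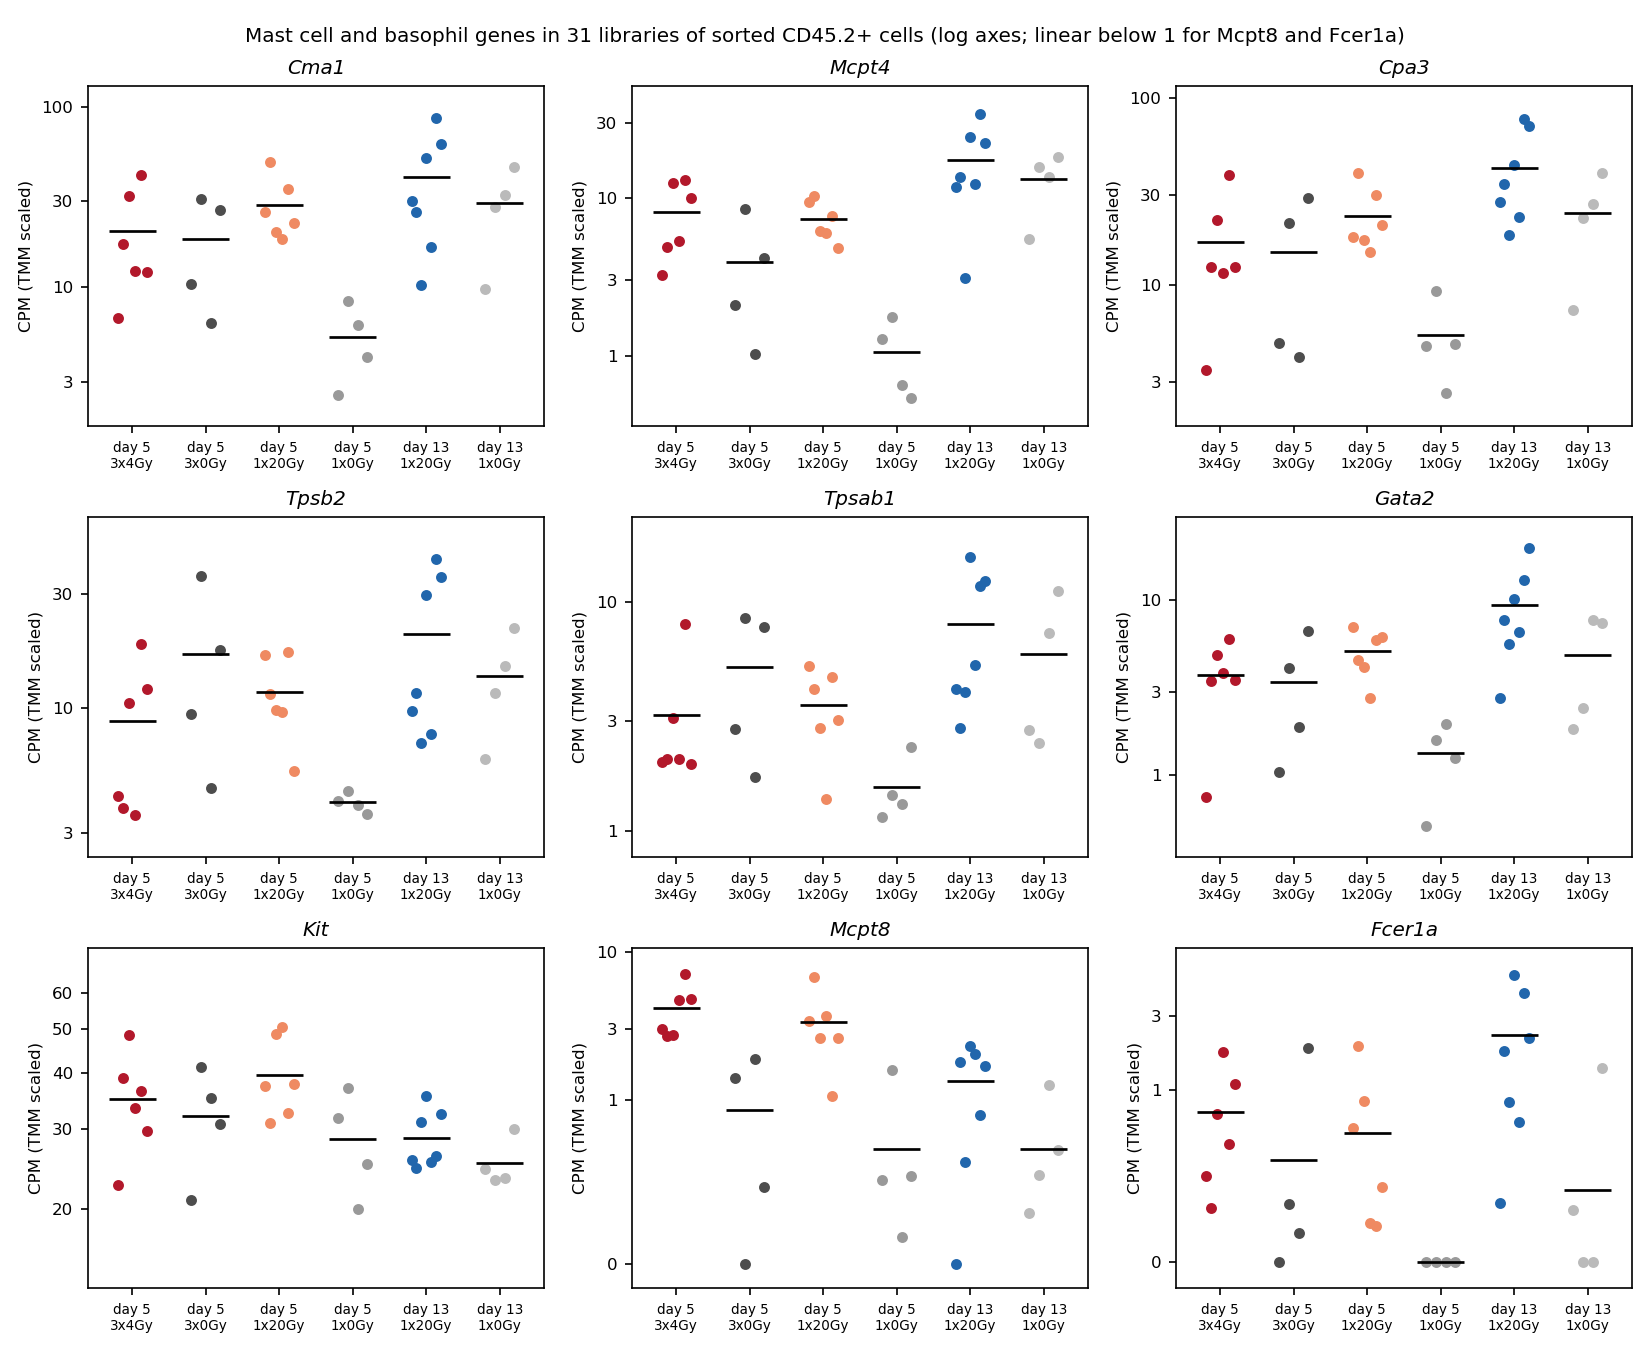
CPM of 9 members in each library, by group, on log axes that turn linear below 1 for Mcpt8 and Fcer1a; points are libraries and lines are group means. At day 5 the 4 libraries of the 1x0Gy mock lie low for Cma1, Mcpt4, Cpa3, Tpsb2 and Gata2, while for Mcpt8 both mock groups lie low.

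At day 5 after 1x20Gy, 5 of the 8 members tested rose over the 1x0Gy mock, among them the chymases, carboxypeptidase A3, Gata2 and the basophil protease Mcpt8. None fell. Of all 12021 genes tested, 3.67% were called higher and 4.88% lower. The median log2 fold change of the 8 members was 2.03, against 0.02 over all genes tested.

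Cma1, a chymase, had 18.6 to 49.8 CPM with a median of 24.4 in the 6 libraries of 1x20Gy tumours, against 2.55, 8.47, 6.22 and 4.12 CPM in the 1x0Gy mocks. Every irradiated library lay above every mock. It averaged 28.7 ± 11.8 CPM after 1x20Gy (SD, n = 6) and 5.34 ± 2.57 CPM in 1x0Gy mocks (n = 4); the log2 fold change was 2.44 (SE 0.51; edgeR adjusted p = 0.0042). Mcpt4, the other chymase, had 4.80 to 10.3 CPM with a median of 6.92 after 1x20Gy, against 1.28, 1.76, 0.655 and 0.537 CPM in the mocks, again without overlap. Its log2 fold change of 2.75 was the highest among the members (SE 0.52; edgeR adjusted p = 0.00173).

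Cpa3, which removes C-terminal residues from peptides cut by the chymases, had 14.9 to 39.3 CPM with a median of 19.4 after 1x20Gy, against 4.72, 9.27, 2.62 and 4.83 CPM in 1x0Gy mocks. The groups did not overlap, and the log2 fold change was 2.13 (SE 0.57; edgeR adjusted p = 0.02). Gata2 had 2.75 to 7.04 CPM with a median of 5.24 after 1x20Gy, against 0.51, 1.60, 1.96 and 1.25 CPM in the mocks. These groups were also apart, at a log2 fold change of 1.93 (SE 0.49; edgeR adjusted p = 0.0146). The call of Cpa3 was lost without 1x0Gy replicate 1 (adjusted p = 0.0589), 3 (0.0846) or 4 (0.07), and that of Gata2 without 1x0Gy replicate 1 (0.0581) or 4 (0.0509).

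The tryptases did not pass the test. Tpsb2 had 5.46 to 17.2 CPM with a median of 10.6 after 1x20Gy, against 4.08, 4.47, 3.93 and 3.58 CPM in 1x0Gy mocks, a log2 fold change of 1.53 (SE 0.51; edgeR adjusted p = 0.0642). Although uncalled, its irradiated libraries all lay above the mocks, which made 5 of 8 members without overlap, beside 5.44% of all genes tested. Tpsb2 was called when edgeR was fitted to the 2 compared groups alone (log2 fold change 1.53, adjusted p = 0.00389; 6.18% of the 11403 genes of that fit higher), without the count filter (0.0393), by DESeq2 (0.0221), and without 3x0Gy replicate 2 (0.0345) or 3 (0.0401), which share the fit of all day 5 libraries. Tpsab1 averaged 3.55 ± 1.41 CPM after 1x20Gy (n = 6) and 1.56 ± 0.53 CPM in mocks (n = 4), with overlap (edgeR adjusted p = 0.153). Kit, which is also carried by progenitors and some lymphoid cells, averaged 39.6 ± 8.18 CPM after 1x20Gy and 28.5 ± 7.497 CPM in mocks (edgeR adjusted p = 0.188).

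Mcpt8 was higher after irradiation with both regimens at day 5, and it was the only member called with both. In 3x4Gy libraries it had 2.68 to 7.11 CPM with a median of 3.87, against 1.39, 0, 1.88 and 0.465 CPM in 3x0Gy mocks, and every irradiated library lay above every mock. That comparison gave a log2 fold change of 2.05 (SE 0.59; edgeR adjusted p = 0.026). In 1x20Gy libraries it had 1.06 to 6.79 CPM with a median of 3.01, against 0.51, 1.60, 0.164 and 0.537 CPM in 1x0Gy mocks, where the lowest irradiated library lay under the highest mock. The log2 fold change was 2.24 (SE 0.59; edgeR adjusted p = 0.0186). These levels rest on 114 reads in all 3x4Gy libraries and 18 in 3x0Gy mocks, and on 99 reads in 1x20Gy libraries and 18 in 1x0Gy mocks. The 3x4Gy call was lost without replicate 5 of the 3x4Gy group (adjusted p = 0.0572) or without replicate 2 (0.0662) or 4 (0.0859) of the 3x0Gy mock. The 1x20Gy call was lost without 1x20Gy replicate 2 (0.0525) or 1x0Gy replicate 1 (0.0619), 3 (0.0774) or 4 (0.0684).

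Mcpt8 was also the 1 member of 8 that rose after 3x4Gy against 3x0Gy, where 5.2% of all genes tested were called higher and 7.09% lower, and the 1 member without overlap, beside 3.91% of all genes. The median log2 fold change of the 8 members was 0.14, against -0.00 over all genes. Mcpt4 had 3.26 to 13.1 CPM with a median of 7.68 in 3x4Gy libraries, against 2.09, 8.52, 1.03 and 4.19 CPM in 3x0Gy mocks, a log2 fold change of 1.12 that did not pass (SE 0.46; edgeR adjusted p = 0.113). It passed without replicate 2 of the mock (adjusted p = 0.024). Cma1 had 6.77 to 42.2 CPM with a median of 14.9 in 3x4Gy libraries, against 10.5, 31.001, 6.34 and 26.8 CPM in 3x0Gy mocks, so that the groups covered nearly the same range.

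The tryptases had negative estimates that did not pass. Tpsb2 averaged 8.78 ± 6.03 CPM after 3x4Gy (n = 6) and 16.8 ± 13.7 CPM in 3x0Gy mocks (n = 4); the log2 fold change was -0.90 (SE 0.47; edgeR adjusted p = 0.207). Tpsab1 had a log2 fold change of -0.69 (edgeR adjusted p = 0.337). Cpa3 (0.16), Kit (0.13) and Gata2 (0.07) had log2 fold changes near 0, with SEs of 0.52, 0.22 and 0.45, and the sign for Gata2 turned under upper quartile and library size scaling.

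**Figure D2:**
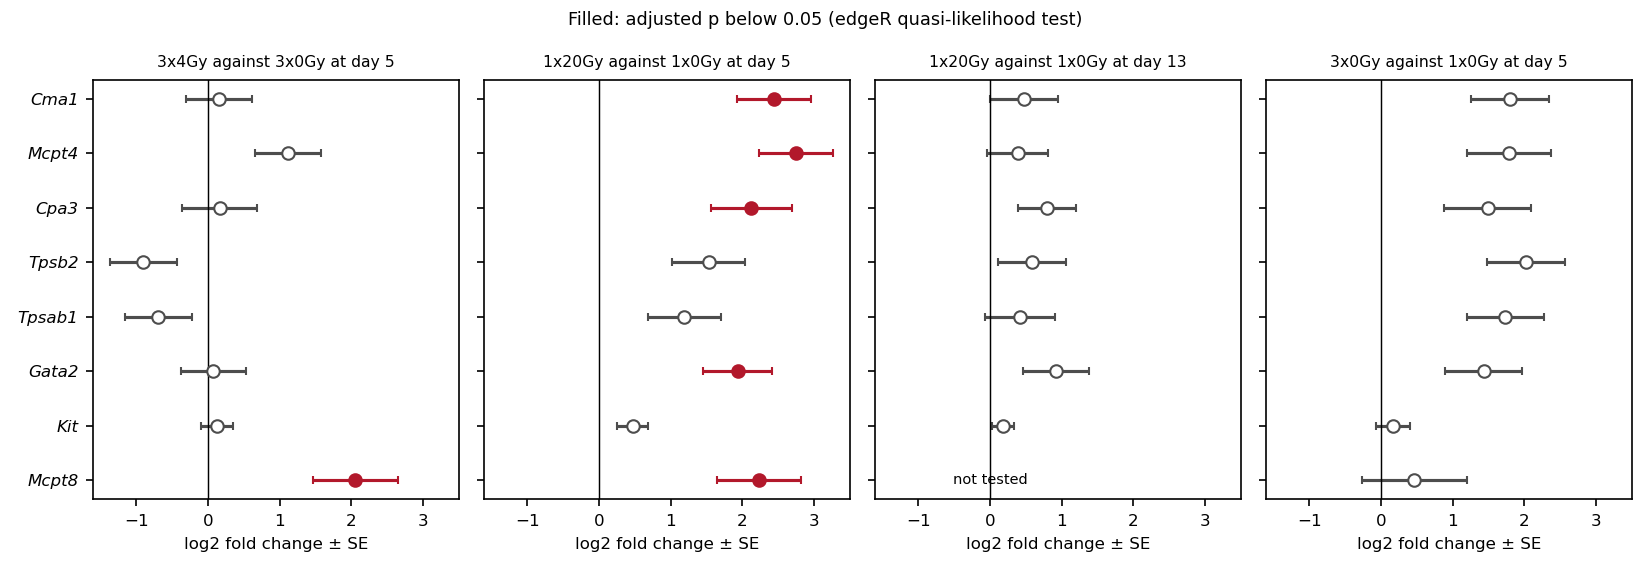
Log2 fold change with its SE for 8 members in 4 comparisons, filled where the adjusted p was below 0.05. Calls appear for 5 members after 1x20Gy at day 5 and for Mcpt8 after 3x4Gy, and the gap between the 2 mock groups in the right panel is as wide for the proteases and Gata2 as many of the responses to dose.

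Between the 2 mock groups of day 5 the same genes had estimates of like size, none of which was called. Tpsb2 had 9.41, 35.8, 4.62 and 17.5 CPM in 3x0Gy mocks, all above the 4.08, 4.47, 3.93 and 3.58 CPM of 1x0Gy mocks, a log2 fold change of 2.03 (SE 0.54) with an unadjusted p of 0.00117 and an edgeR adjusted p of 0.796. The estimates were 1.80 for Cma1, 1.78 for Mcpt4, 1.73 for Tpsab1, 1.49 for Cpa3 and 1.43 for Gata2, but 0.47 for Mcpt8 and 0.17 for Kit. Without 3x0Gy replicate 2, which was the highest mock for Tpsb2, Mcpt4 and Cma1 and had 5.65% of reads outside genes, against 15.9 to 21.5% in the other day 5 mocks, the gap became 1.38 for Tpsb2, 1.18 for Mcpt4 and 1.465 for Cma1. Without 3x0Gy replicate 4 it became 0.86 for Cpa3 and 0.80 for Gata2. None of the 8 members was called by edgeR, DESeq2 or limma voom, and 0% of the 12021 genes were called by edgeR. Of the 8 members, 6 had an unadjusted p below 0.05, beside 667 of the 12021 genes. Tpsb2 was the 1 member without overlap, beside 2.04% of all genes. Their median log2 difference was 1.61, against 0.03 over all genes tested.

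Which members were called depended on which single mock was the reference. With 3x0Gy as the reference for 1x20Gy, a comparison added after the data were seen, only Mcpt8 was called of the 8 members (log2 fold change 1.77, SE 0.60; edgeR adjusted p = 0.0479), beside 6.2% of all genes higher. Cma1 then had a log2 fold change of 0.64 (adjusted p = 0.375) and Mcpt4 one of 0.97 (0.165), while Tpsb2 and Tpsab1 turned to -0.50 and -0.54. With 1x0Gy as the reference for 3x4Gy, Cma1 (1.96; adjusted p = 0.0287), Mcpt4 (2.91; 0.00195) and Mcpt8 (2.52; 0.0141) were called higher, beside 1.99% of all genes. Against the mean of both mocks, Mcpt4 (2.01; adjusted p = 0.00137) and Mcpt8 (2.29; 0.00213) were called after 3x4Gy, beside 6.66% of all genes higher. After 1x20Gy the 5 members called against 1x0Gy were all called against that mean, Cma1 at 1.54 (0.0079), Mcpt4 at 1.86 (0.0018), Mcpt8 at 2.00 (0.00458), Cpa3 at 1.38 (0.0303) and Gata2 at 1.22 (0.0279), beside 8.7% of all genes higher. Mcpt8 was the 1 member called against either mock with either regimen.

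The difference between the responses to the regimens did not pass for any member. Subtracting the 1x20Gy response of day 5 from the 3x4Gy response gave log2 differences of -2.43 for Tpsb2 (unadjusted p = 0.00189), -2.28 for Cma1, -1.96 for Cpa3, -1.88 for Tpsab1, -1.86 for Gata2 and -1.63 for Mcpt4, and of -0.18 for Mcpt8. Of the 8 members 6 had an unadjusted p below 0.05, beside 714 of all 12021 genes tested. No member was called by edgeR, DESeq2 or limma voom. Over all genes edgeR called 0% and DESeq2 0.00832% (1 gene). Set directly against 1x20Gy, 3x4Gy libraries differed by log2 values between -0.48 for Cma1 and 0.29 for Mcpt8. No member was called by any of the 3 tools, beside 0.025% of all genes called by edgeR. None had an unadjusted p below 0.05, beside 826 of 12021 genes.

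Fibroblast and epithelial RNA moved with these groups. The 8 summed fibroblast markers had 15.9 to 49.4 CPM in 3x4Gy libraries and 91.3 to 208 CPM in 3x0Gy mocks, and 12.0 to 66.8 CPM in 1x20Gy libraries and 55.5 to 198 CPM in 1x0Gy mocks. The 8 epithelial markers summed to 166 to 756 CPM after 3x4Gy and 484 to 1117 CPM in 3x0Gy mocks, and to 156 to 524 CPM after 1x20Gy and 430 to 622 CPM in 1x0Gy mocks, with overlap in both pairs. At day 13 they summed to 742 to 2156 CPM after 1x20Gy and 686 to 928 CPM in 1x0Gy mocks, where Cldn4 was called higher (log2 fold change 1.55) and Krt14 lower (-1.53). No marker of either list was at 0 in a whole group. With the mean of both lists as a covariate, 0 of 8 members were called after either regimen at day 5, where calls over all genes also dropped, to 0.765% higher and 0.499% lower after 3x4Gy and 0.849% higher and 0.532% lower after 1x20Gy. The log2 fold change of Mcpt8 became 0.80 after 3x4Gy and 1.20 after 1x20Gy, while after 1x20Gy Cma1 had 1.81 (adjusted p = 0.177), Mcpt4 1.99 (0.0945) and Gata2 1.69 (0.207). With the share of reads outside genes as the covariate instead, 3 calls were lost at estimates close to those above, with wider SEs: Mcpt8 had 1.93 after 3x4Gy (adjusted p = 0.117) and 2.12 after 1x20Gy (0.068), and Gata2 1.86 after 1x20Gy (0.053). Tpsb2 after 1x20Gy was called (1.91; 0.047). Calls over all genes were then 2.1% higher and 3.44% lower after 3x4Gy and 2.62% higher and 3.51% lower after 1x20Gy. Within groups, the correlation of Mcpt8 with the fibroblast and epithelial mean was negative, with r = -0.442 (n = 31; permutation adjusted p = 0.0507), r = -0.473 without the 2 farthest libraries and Spearman rho of -0.521 (adjusted p = 0.0218). For the protease mean r was -0.273 (permutation adjusted p = 0.184). These are 4 relations computed after the data were seen, with the share of reads outside genes as the second measure.

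**Figure D3:**
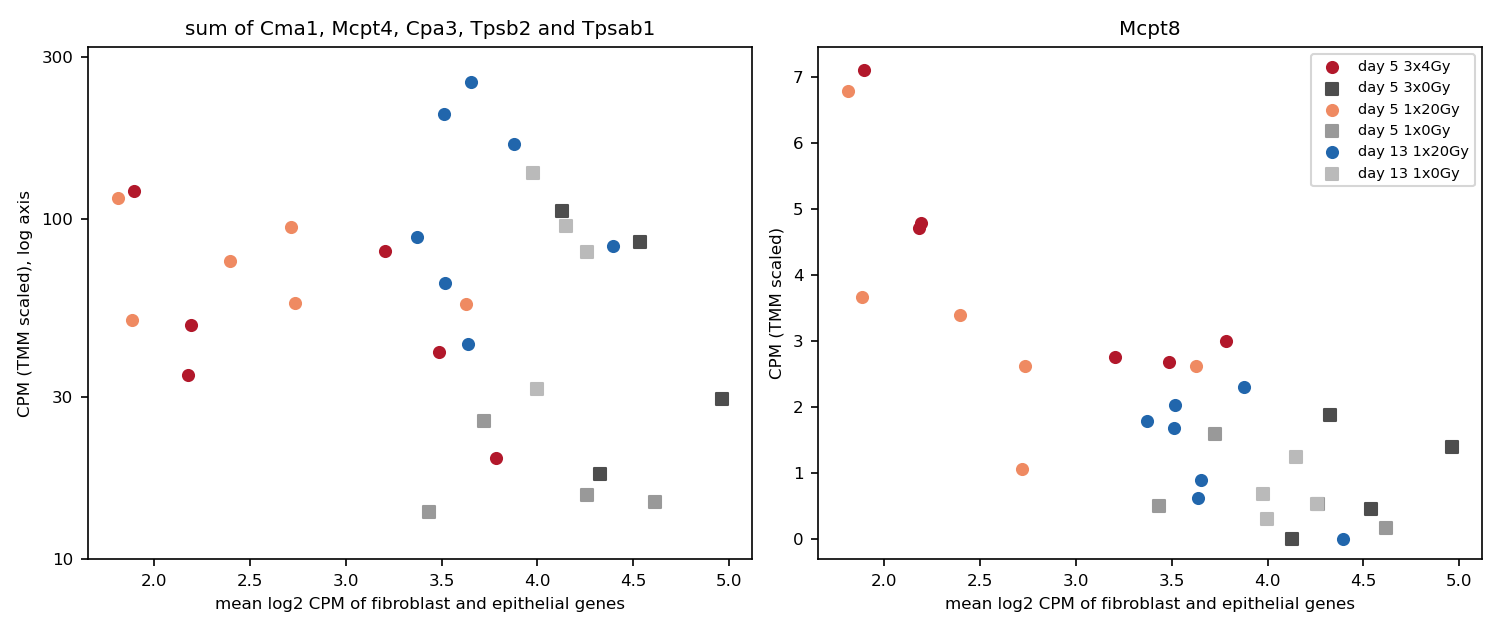
Each point is a library, placed by the mean log2 CPM of 16 fibroblast and epithelial genes and by the CPM of 5 summed protease genes (left, log axis) or Mcpt8 (right); circles are irradiated and squares mock tumours. On the horizontal axis day 5 irradiated libraries span 1.81 to 3.79 and day 5 mocks 3.43 to 4.96, with overlap, and Mcpt8 is highest in 2 irradiated libraries, at 7.11 and 6.79 CPM.

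At day 13 no member was called after 1x20Gy. The 5 summed protease genes, Cma1, Mcpt4, Cpa3, Tpsb2 and Tpsab1, had 42.9 to 252 CPM with a median of 88.5 in 1x20Gy libraries, against 31.6, 80.1, 95.5 and 137 CPM in 1x0Gy mocks. The 3 highest irradiated libraries exceeded every mock and the others lay among them. Cpa3 averaged 42.0 ± 23.1 CPM after 1x20Gy (SD, n = 7) and 24.1 ± 13.2 CPM in its mocks (n = 4); the log2 fold change was 0.80 (SE 0.41; edgeR adjusted p = 0.257). With the share of reads outside genes as a covariate, Cpa3 was called at a log2 fold change of 1.52 (adjusted p = 0.0353), beside 5.67% of all genes called higher.

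Gata2 averaged 9.36 ± 5.66 CPM after 1x20Gy and 4.85 ± 3.15 CPM in mocks at day 13, a log2 fold change of 0.92 (SE 0.46; edgeR adjusted p = 0.244). Cma1 (0.48), Mcpt4 (0.39), Tpsb2 (0.59), Tpsab1 (0.42) and Kit (0.18) had smaller estimates, and Kit turned negative under library size scaling. None of the 7 members tested was called by edgeR, DESeq2 or limma voom. Over 11071 genes, edgeR called 4.22% higher and 3.83% lower. No member had an unadjusted p below 0.05, beside 2583 of those genes, and none was without overlap, beside 3.31%. The median of the 7 was 0.48, against 0.01 over all genes. Mcpt8, too low to test, had 0 to 2.31 CPM with a median of 1.69 after 1x20Gy, against 0.306, 0.539, 1.25 and 0.693 CPM in mocks.

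Set against its day 5 counterpart, the day 13 response to 1x20Gy had negative log2 differences in all 8 members of the fit of all libraries, led by Mcpt4 at -2.34 (SE 0.72; unadjusted p = 0.0027, edgeR adjusted p = 0.119) and Cma1 at -1.94 (SE 0.73; adjusted p = 0.229). None was called by edgeR, beside 0.423% of 12061 genes, and 2 had an unadjusted p below 0.05, beside 1499 of those genes. DESeq2 called Mcpt4 (adjusted p = 0.0456) and limma voom none. The 1x0Gy mocks themselves held 13.8 to 25.4 CPM of the 5 summed proteases at day 5.

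The FcεRI chains were near the limit of detection. Fcer1a had 1 to 11 reads in each of the 6 day 5 1x20Gy libraries, 23 in all, against 0 reads in all 4 of the 1x0Gy mocks. With 3 reads over the mock group as the floor, its pooled level of 0.765 CPM after 1x20Gy was 6.34 times that floor. This ratio leaves out the spread between libraries. Replicate 2 held 11 of the 23 reads, and without it the level was 0.487 CPM and the ratio 4.04. In 3x4Gy libraries Fcer1a pooled to 0.806 CPM. In 3x0Gy mocks it pooled to 0.825 CPM, 6.84 times the same floor, where replicate 4 held 12 of the 14 reads (0.185 CPM and 1.53 times without it). At day 13 it pooled to 2.21 CPM (55 reads) in 1x20Gy libraries and 0.482 CPM (7 reads) in 1x0Gy mocks, of which replicate 4 held 6 (0.0928 CPM without it). Without the count filter the edgeR adjusted p was 0.0118 at day 5 and 0.0664 at day 13 for 1x20Gy. That day 5 fit gave a log2 fold change of 5.01 for 1x20Gy. For 3x0Gy against 1x0Gy it gave 4.85 (edgeR adjusted p = 0.842). Ms4a2 had 0 to 4 reads per library in every group, and no difference was detectable at this depth.

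Between libraries of the same group the mast cell proteases moved as a block and Mcpt8 did not move with them. With group means removed, all 10 pairs among Cma1, Mcpt4, Cpa3, Tpsb2 and Tpsab1 had Pearson r of 0.662 to 0.898 over the 31 libraries (Spearman rho 0.686 to 0.895; r 0.633 to 0.898 without the 2 farthest libraries), with permutation p adjusted over 36 pairs of at most 0.00138. Gata2 had r of 0.583 to 0.769 with the 5 proteases, each with an adjusted permutation p of at most 0.0101. Kit had r of 0.201 to 0.392 and Fcer1a of 0.456 to 0.539, of which 0 and 2 of 5 passed. Mcpt8 had r of -0.033 to 0.071 (rho 0.017 to 0.200) with the proteases, and none of its pairs passed. All of these share the library's depth and composition, and the reads behind Mcpt8 and Fcer1a are few.

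**Figure D4:**
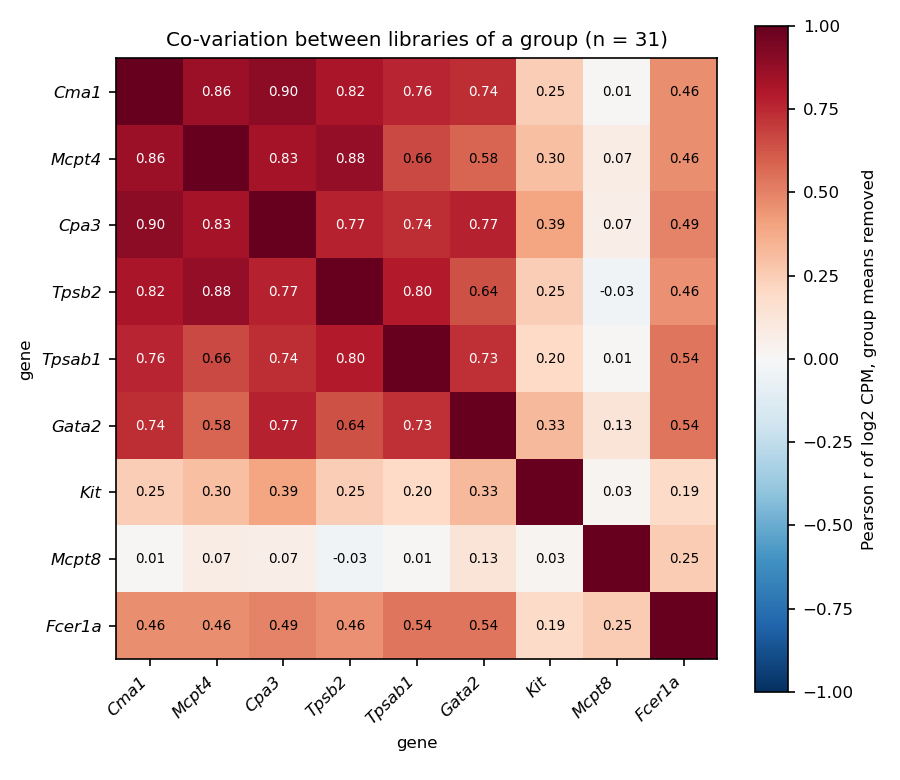
Pearson r of log2 CPM between members over 31 libraries with the group means removed. The 5 proteases and Gata2 form a block with r from 0.58 to 0.90, and Mcpt8 lies near 0 with each protease.

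Genes outside the list that varied most like the mean of the 5 proteases, among 12026 ranked, were Atp8b5 (r = 0.745), Gm12942 (0.714), Srgn (0.701), Serpinb1a, Fuca2, Acot9, Klhl2, Qdpr, Cyp11a1 (0.673) and Tph1 (0.672), as a description over 31 libraries. Srgn encodes serglycin, the proteoglycan core that holds proteases in granules, and Tph1 the rate-limiting enzyme of peripheral serotonin synthesis. Those most like Mcpt8 were Ift80 (0.658), Lrrc8c, Ralgapb, Tigd2 and AC123702.2.

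Of 19 further mast cell granule and marker genes, 10 were tested on each day. After 3x4Gy at day 5, 1 was called higher and none lower, and after 1x20Gy at day 5, 3 higher and none lower. After 1x20Gy at day 13, 1 was higher and 2 lower. Their median log2 fold changes were 0.01, 0.45 and 0.25. Over all genes tested, 5.2%, 3.67% and 4.22% were called higher in these comparisons, and 7.09%, 4.88% and 3.83% lower. Hdc, the enzyme that makes histamine and is also found in neutrophils, rose in all 3, by log2 values of 1.68, 2.13 and 1.73 (edgeR adjusted p = 0.00165, 0.000306 and 0.00124). Its r with the protease mean within groups was 0.547, and that of the protease gene Mcpt2 was 0.599. Mcpt2 averaged 90.8 CPM after 1x20Gy and 27.7 CPM in 1x0Gy mocks at day 5, a log2 fold change of 1.71 (edgeR adjusted p = 0.0159). Its level in 3x0Gy mocks was 87.9 CPM, which gave a gap of like size between the mocks (log2 1.67; unadjusted p = 0.00165, adjusted p = 0.796) and 0.05 for 3x4Gy against 3x0Gy. The third call was Il1rl1, the interleukin 33 receptor chain (log2 fold change 1.32). Cd63, a granule membrane protein found in many cells, and Mitf, a transcription factor of mast cells, fell at day 13 by 0.64 and 0.60 on the log2 scale. Their r with the protease mean within groups was lower, at 0.365 and 0.268.

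Kitl and Il33, which encode stem cell factor and interleukin 33, fell in all 3 comparisons of an irradiated group with its own mock. Of 10 growth factor and cytokine genes 5 were tested, and none was called higher. Called lower were 2 after 3x4Gy, 3 after 1x20Gy at day 5 and 2 after 1x20Gy at day 13. Over all genes, 7.09%, 4.88% and 3.83% were called lower. Kitl averaged 5.40 CPM after 3x4Gy and 27.0 CPM in 3x0Gy mocks, and had log2 fold changes of -2.31, -2.37 and -1.64 in the 3 comparisons. Il33 had log2 fold changes of -3.22, -2.70 and -1.99, all called. Tgfb1 was lower after 1x20Gy at day 5 (log2 fold change -0.96). Both Kitl and Il33 are known to be made by stromal and epithelial cells. At day 13 the summed fibroblast markers had 14.2 to 32.9 CPM after 1x20Gy and 40.4 to 79.0 CPM in mocks, and their part in these values was not tested.

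Of 13 basophil genes 8 were tested, with 2, 1 and 1 called higher and none lower in the 3 comparisons. The shares over all genes were 5.2%, 3.67% and 4.22% higher and 7.09%, 4.88% and 3.83% lower. Csf2rb, the shared beta chain of the interleukin 3 and GM-CSF receptors on many myeloid cells, rose after 3x4Gy (log2 fold change 1.08) and after 1x20Gy at day 5 (0.95). Il3ra, its interleukin 3 partner chain, rose after 3x4Gy (1.18), and Il18rap, of the interleukin 18 receptor, after 1x20Gy at day 13 (0.89). All 15 FcεRI signalling genes were tested, with 1, 2 and 4 higher and none, none and 1 lower. The 1 call of 15 after 3x4Gy is near the 5.2% of all genes. Syk rose after 3x4Gy (0.59), and Pik3cd after 1x20Gy at day 5 (0.77) and day 13 (0.48), where Fyn also rose (0.63) and Lat2 fell by 0.45 on the log2 scale. These kinases and adaptors serve many leukocytes. Of 6 lipid mediator genes, Ptgs2 rose after 3x4Gy (1.73) and 1x20Gy (1.39) at day 5, and Ptgs1 was lower in all 3 comparisons (-0.83, -1.25 and -1.04). The other calls in these lists were Lat after 1x20Gy at day 5 and Grap2 and Plcg1 at day 13; they and Il1rl1 are named outside the rule, after their values were seen.

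Markers of other cells that carry some of the same genes are given as values. Eosinophil markers summed to 21.1 to 49.5 CPM after 1x20Gy and 7.66 to 32.9 CPM in 1x0Gy mocks at day 5. Of the 10 markers, Epx, Prg3 and Ear6 were at 0 in both groups, Ear1 after 1x20Gy and Il5ra in the mocks. None of the 3 genes tested was called there or after 3x4Gy. In a list for group 2 innate lymphoid cells, whose genes T cells also express, 6 genes were tested. Of these, 3 rose after 3x4Gy, 5 after 1x20Gy at day 5 and 3 after 1x20Gy at day 13. Over all genes, 5.2%, 3.67% and 4.22% were called higher. The list summed to 468 to 1101 CPM after 1x20Gy and 156 to 400 CPM in 1x0Gy mocks at day 5. Klrg1 led with a log2 fold change of 2.49 after 1x20Gy at day 5. Haematopoietic progenitor markers summed to 40.7 to 65.5 CPM after 1x20Gy and 46.2 to 69.5 CPM in mocks at day 5, and 0 of 4 were called. Whether any of these cells carried a share of the members' RNA was not tested.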

How the data were processed

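The deposited files hold whole-number read counts per gene symbol, 1 file per library, as the authors made them. Per the submitters' processing notes, reads were handled with bcl2fastq 2.20.0.422, cutadapt 1.5, HISAT2 2.0.4 and HTSeq 0.9.1 on GRCm38 or mm10; the gene annotation, strand setting and read filters are not given in the sources used here. Summary lines of the counter (reads outside genes, 5.65 to 32.0% of reads) stayed out of totals and tests. Genes passed edgeR's filter (count minimum 10, total minimum 15) and were scaled by TMM. edgeR 4.0.16's quasi-likelihood test (R 4.3.3) was fitted to the 20 day 5 libraries in 4 groups, to the 11 day 13 libraries, and to all 31 for the difference between days, with Benjamini-Hochberg adjustment over all genes. Log2 CPM used a prior count of 2. Alternatives were DESeq2 1.42.0, limma 3.58.1 voom, other scalings, no filter, 2 covariates, only the 2 compared groups in the fit, the other mock or the mean of both mocks as reference, and leaving out each library. The fits were tested on simulated data. Coordinates come from GENCODE M21, exon sharing from its transcripts and promoters from RefSeq (GRCm38.p6). No 2 libraries agreed within sampling noise (69 pairs compared). The members and gene lists were chosen with earlier results of these data known. All members are described; of each list at most 4 genes were named, by calls and then mean CPM.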

Additional observations from a re-analysis of the deposited data

Results flagged for a closer look

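Of 53 sets of log2 CPM values of 1 member in 1 group of 4 to 7 libraries, 2 had a library far from the others by Dixon's test at 95%, which chance gives in about 1 set in 20. Tpsab1 in replicate 5 of the day 5 3x4Gy group stood at a log2 CPM of 3.07 (8.02 CPM), with the next library at 1.81. Gata2 in replicate 1 of the same group stood at a log2 CPM of 0.20 (0.752 CPM), with the next library at 1.95.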

How the results depend on the processing

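Depth limited the members most where reads were few: Mcpt8 had 18 reads over the 4 libraries of each day 5 mock group, and Fcer1a had 23 over the 6 of each irradiated one. The median SE of the members tested was 0.51 for 1x20Gy against 1x0Gy at day 5, against 0.22 over all genes. The day 5 counts of called members depended on the covariate and on which single mock was used. After 3x4Gy, where 1 member was called, 0 were called with the share of reads outside genes as a covariate, with the fibroblast and epithelial mean as a covariate and with the replicate block, fits that called 2.1%, 0.765% and 4.38% of all genes higher, against 5.2%; 2 were called against the mean of both mocks and 3 against 1x0Gy. After 1x20Gy at day 5, where 5 were called, 0 were called with the fibroblast and epithelial covariate (0.849% of all genes higher, against 3.67%) and 1 against 3x0Gy, while 5 were called against the mean of both mocks and 6 with only the 2 compared groups in the fit. At day 13, where 0 were called, 1 (Cpa3) was called with the share of reads outside genes as a covariate, and for the difference between days DESeq2 called 1 (Mcpt4). Leaving out 1 library gave 0 to 1 members after 3x4Gy and 2 to 6 after 1x20Gy at day 5, lowest without 1x0Gy replicate 1 or 4. It gave 0 to 6 differing ratios of protease genes, highest without day 13 1x20Gy replicate 4. Day 5 ratios do not use that library, so only their adjusted p moved, while day 13 ratios do use it. The cause of the other changes was not tested.

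The estimates that turned direction were not called. In 3x4Gy against 3x0Gy, the log2 fold change of Gata2 became -0.0055 with upper quartile scaling, -0.013 with library size scaling, -0.010 with the share of reads outside genes as a covariate and -0.042 with the replicate block. With the fibroblast and epithelial covariate, the values were -0.54 for Cma1, -1.002 for Cpa3, -0.028 for Kit and -0.23 for Gata2. Against the mean of both mocks, Tpsb2 and Tpsab1 became 0.11 and 0.18, and against 1x0Gy 1.13 and 1.05. For 1x20Gy against 3x0Gy, the values were -0.50 for Tpsb2 and -0.54 for Tpsab1. At day 13, Kit became -0.055 with library size scaling, and Cma1 and Mcpt4 -0.011 and -0.099 with the replicate block. Leaving out 1 library gave ranges of -0.17 to 0.47 for Cma1, -0.27 to 0.79 for Cpa3, -0.020 to 0.25 for Kit and -0.18 to 0.70 for Gata2 after 3x4Gy, -0.26 to 1.21 for Mcpt8 between the mocks, -0.92 to 0.54 for Mcpt8 in the difference of responses, and -0.012 to 0.31 for Mcpt4 in 3x4Gy against 1x20Gy. Within groups, r of Mcpt8 was -0.0265 with Cma1 and -0.0042 with Tpsab1 at a prior count of 0.5, and 0.0027 with Tpsb2 for CPM by library size.

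Whether replicate numbers pair the samples could not be settled from 4 same-numbered pairs per comparison. In the 3 comparisons with own mocks, 2, 2 and 3 pairs had a correlation over 0.1, and between the mocks 1 had. In the same order, 2, 0, 0 and 1 libraries correlated best with their own number. The highest r was 0.399, in 3x4Gy against 3x0Gy. The replicate block ended the call of Mcpt8 after 3x4Gy (adjusted p = 0.0769) at a log2 fold change of 1.98, close to the 2.05 without it, left 5 members called after 1x20Gy at day 5 and changed no other call. RLE scaling, limma voom and leaving out RP23-81C12.3 changed no call and no direction among the 62 results recomputed under each.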

Other observations

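Ratios between the 5 protease genes within a library, which do not depend on scaling, were compared after the counts were seen, as 30 tests of an irradiated group against its own mock. At day 5 the log2 ratio of Mcpt4 to Tpsb2 was 0.01 ± 0.44 in 3x4Gy libraries (SD, n = 6) and -2.06 ± 0.02 in 3x0Gy mocks (n = 4), a difference of 2.07, and -0.61 ± 0.38 in 1x20Gy libraries (n = 6) and -1.98 ± 0.61 in 1x0Gy mocks (n = 4), a difference of 1.38. In both cases every irradiated library lay above every mock, and the two-sided exact permutation p of 0.00952 is the smallest this design can give (adjusted p = 0.0571). The log2 ratio of Mcpt4 to Tpsab1 differed by 1.85 after 3x4Gy and 1.71 after 1x20Gy, with the same exact p. So did the ratio of the 2 chymases, Cma1 to Mcpt4, after 3x4Gy, by -1.09 with that exact p. After 1x20Gy at day 5 it differed by -0.35 (exact permutation p = 0.41). At day 13 the difference for Mcpt4 to Tpsb2 was -0.15 (exact permutation p = 0.697). None of the 30 passed the adjusted threshold, and 6 did without replicate 4 of the day 13 1x20Gy group. That library enters no day 5 ratio, so the day 5 differences and exact p stayed as given and only their adjusted p moved. It does enter the day 13 ratios, whose exact p could also move. There it held the highest log2 ratio of Cma1 to Cpa3 after 1x20Gy, 0.26, above the lowest mock at 0.25. With all libraries that ratio differed by -0.49 (exact permutation p = 0.0121, adjusted p = 0.0606).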
